A study of Mus musculus with 7 samples.

Results

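The primary granule genes of promyelocytes are described here in lineage-depleted (lin-) bone marrow cells of *HRP-2* wild type and knockout mice. The 8 genes, *Mpo*, *Elane*, *Prtn3*, *Ctsg*, *Ctsc*, *Ms4a3*, *Cst7* and *Srgn*, were taken by name from the 25033 gene symbols of the count files, by a rule that uses no measured value. All 8 were among the 11265 genes that passed the filter on low counts. RNA came from 3 Hrp2+/+ and 4 Hrp2-/- mice aged 6 to 8 weeks, of the line C57BL/6N-Hdgfrp2<tm1b (KOMP)Wtsi>/Tcp, in which the knockout is systemic, and the labels name no treatment for either group. Marrow of femur and tibia was depleted of lineage-positive cells with a commercial progenitor kit. The knockout animals are therefore those that had survived to that age. The 3′ library kit, used on 500 ng of RNA, gives a single fragment for each transcript. *HRP-2* (symbol *Hdgfl2*) encodes a chromatin reader and is the paralog of the gene for LEDGF/p75.

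Primary, or azurophil, granules are the first granules that a neutrophil precursor fills. Their contents are transcribed in granulocyte-monocyte progenitors and promyelocytes, and transcription falls when the cell moves on to make its secondary granules. Myeloperoxidase makes hypochlorous acid from hydrogen peroxide. Neutrophil elastase, proteinase 3 and cathepsin G are serine proteases that are stored active, after cathepsin C has trimmed them. Serglycin is the proteoglycan on which granule proteases are packed, and cystatin F, the product of *Cst7*, is an inhibitor of cathepsin C. *Ms4a3* encodes a membrane protein of granulocyte-monocyte progenitors. *Srgn*, *Cst7* and *Ctsc* are also used by other blood cells, among them mast cells and cytotoxic lymphocytes.

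The promoters of the 8 genes are shown for the short sequence they have in common, the core GGAAGT that ETS family factors such as PU.1 recognise. RefSeq windows on GRCm38.p6, running from 250 bases before to 50 bases after a start site, were found for all 8 genes, 9 windows in all because *Srgn* has a pair. The core was looked for on both strands, after the letters of these windows had been read. The upstream match nearest the start site is printed 5′ to 3′ on the strand that carries it, as 30 bases with the core in capitals.
Mpo: tggagagagagaGGAAGTtgcctttgtccc
Elane: gtgtcccagggaGGAAGTagggctgtggcc
Prtn3: aaactggaaggaGGAAGTgggacccacagc
Ctsg: agaggaagaaaaGGAAGTagtcacctgttt
Ctsc: gaggtggcctgaGGAAGTtagttagtgaca
Ms4a3: tggtatacttggGGAAGTgggtgggccatt
Cst7: aacttctttaaaGGAAGTggttgctcttgt
Srgn: aggggtggcggtGGAAGTcaggcaacagat
These lie at chr11:87793550-87793579 (*Mpo*, + strand), chr10:79886217-79886246 (*Elane*, +), chr10:79879562-79879591 (*Prtn3*, +), chr14:56102762-56102791 (*Ctsg*, -), chr7:88277922-88277951 (*Ctsc*, -), chr19:11640889-11640918 (*Ms4a3*, -), chr2:150570341-150570370 (*Cst7*, +) and chr10:62527573-62527602 (*Srgn*, +). The distance from the core to the start site ran from 49 bases in *Ms4a3* to 216 bases in *Mpo*. The start sites are those of RefSeq, so the stretch shown for *Prtn3* lies within the longer GENCODE gene given with its values. For *Ctsc* and *Srgn* the core is on the strand opposite to the gene.

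The core was found in 8 of the 9 windows and in at least 1 window of all 8 genes. Among all 32851 windows of the same length 23.8% held it, and among the 11462 windows of genes tested here 29.5% did. The longer GAGGAAGT, which contains the core and is the form PU.1 prefers, was found for *Mpo*, *Elane*, *Prtn3* and *Ctsc*, and in 3.20% of all windows and 3.37% of those of tested genes. Of the other motifs searched on both strands, the RUNX core TGTGGT was found for *Ctsg*, *Cst7* and *Srgn* (16.8% of all windows and 13.3% of those of tested genes), the MYB form CAACNG for *Elane*, *Prtn3*, *Ctsg* and *Srgn* (35.02% and 32.9%), and TATAA for *Elane*, *Prtn3*, *Ctsg* and *Srgn* (24.9% and 13.4%). The C/EBP palindrome TTGCGCAA was found for 0 of the 8 genes (0.183% and 0.305%). Among the 14 later granule genes with a window, GGAAGT was found for 6, GAGGAAGT for 3, TGTGGT for 4, CAACNG for 5 and TATAA for 7. A match is a description of the letters and not a measured binding site.

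The libraries held from 3525665 to 5605158 reads on genes, and the ribosomal RNA precursor *Rn45s* took from 4.94% to 20.6% of them. Levels are given as CPM, read counts relative to the library size scaled with edgeR's TMM factors, for which 3 reads, the floor used here, correspond to between 0.559 and 0.838 CPM. Counting intervals and floors cover counting error only. The targeted gene *Hdgfl2* stood at 49.9, 43.6 and 44.5 CPM in wild type replicates 1 to 3 and at 2.52, 0.622, 1.49 and 0.497 CPM in knockout replicates 1 to 4. It lay lower in all 4 knockout mice (log2 fold change −5.09, standard error 0.34; edgeR, adjusted p = 1.38e-07). Knockout replicate 3 stood apart from the other 6 mice with *Xist* at 0.559 CPM and the Y-linked *Ddx3y* at 104.2 CPM, and the labels give no sex. The fold changes were therefore also computed without it. Stem and progenitor markers were present, among them *Cd34* at 226 CPM in wild type and 222 CPM in knockout cells and *Kit* at 112 CPM and 95.1 CPM. Erythroid markers *Hba-a1*, *Hbb-bs* and *Hbb-bt* were listed at 0 in every mouse.

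No primary granule gene was called different between the genotypes. At the study's threshold of an adjusted p-value under 0.25, edgeR's quasi-likelihood test called 0 of the 8 genes, where 0.0178% of all genes tested were called. At an unadjusted p-value under 0.05 it gave 0 of the 8, against 3.63% of all genes tested. DESeq2 and limma-voom also called 0 of the 8, and their shares over all genes are not given here. The CPM values of the genotypes overlapped for each of the 8 genes, and 5.16% of all genes tested had no overlap. The fitted log2 fold change, knockout over wild type, was positive for *Ctsc*, *Prtn3*, *Cst7* and *Mpo* and negative for *Elane*, *Ctsg*, *Ms4a3* and *Srgn*. Their median was 0.00069, and the median over all genes tested was −0.0014. For each of the 8 genes the edgeR adjusted p was 0.999. Only the spread between these mice enters the p-values.

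**Figure D1:**
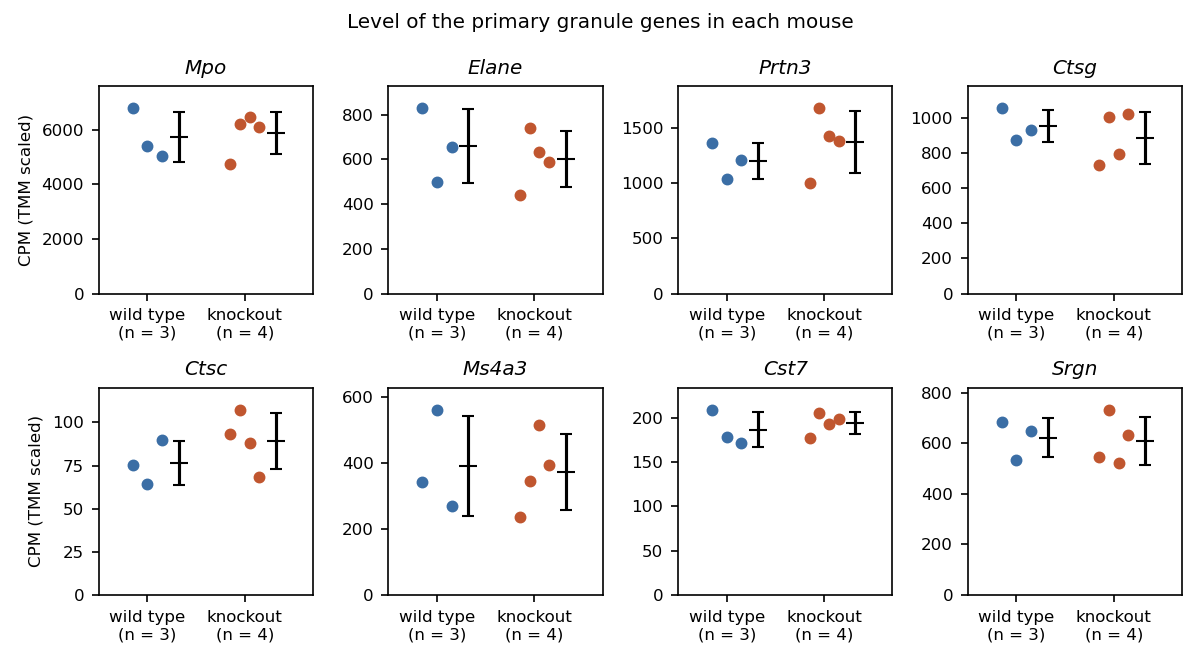
The level of each primary granule gene in CPM (linear axis from 0) is plotted for 3 wild type and 4 knockout mice, in order of replicate number, with the mean and SD of each genotype beside the points. In all 8 panels the points of the genotypes overlap, and *Ms4a3* has the widest scatter.

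*Mpo* (ENSMUSG00000009350, chr11:87793581-87804413, + strand of GRCm38) encodes myeloperoxidase and was the gene with the third highest mean level in the files. Its level was 6793, 5409.6 and 5027 CPM in wild type replicates 1 to 3 and 4735, 6229.9, 6468 and 6105 CPM in knockout replicates 1 to 4. The highest mouse was a wild type and the lowest a knockout. The genotype means were 5743 ± 929 CPM (SD, n = 3) and 5884 ± 781 CPM (SD, n = 4), with a log2 fold change of 0.03 (95% interval −0.27 to 0.34; log2(CPM + 1) compared by exact permutation over the mice, p = 0.8286). The interval leaves room for no more than a 1.27-fold rise or a fall to 0.8292 of the wild type level. The neighbour 7652 bases upstream is *Tspoap1*, the gene that was called higher in the knockout cells, which stood at 100.4 ± 18.5 CPM (SD, n = 3) and 227 ± 36.7 CPM (SD, n = 4).

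*Prtn3* (ENSMUSG00000057729, chr10:79874476-79883174, + strand) encodes proteinase 3. Wild type replicates 1 to 3 had 1365, 1038 and 1215 CPM, and knockout replicates 1 to 4 had 1000.3, 1681, 1426 and 1388 CPM. In knockout cells 3 of the mice lay above every wild type mouse, while replicate 1 lay below every one. The means were 1206 ± 164 CPM (SD, n = 3) and 1374 ± 281 CPM (SD, n = 4), and the log2 fold change was 0.19 (95% interval −0.15 to 0.52; exact permutation p = 0.400). Leaving out knockout replicate 1 therefore removes the overlap by construction. The log2 fold change was then 0.32, and the edgeR adjusted p remained 0.999. The log2 fold change was 0.076 without knockout replicate 2 and 0.091 without wild type replicate 2.

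*Elane* (ENSMUSG00000020125, chr10:79886247-79888215, + strand) encodes neutrophil elastase and begins 3072 bases after the end of *Prtn3*. Its values were 829, 499 and 657 CPM in wild type replicates 1 to 3 and 439, 742, 635 and 589 CPM in knockout replicates 1 to 4. Each knockout value but that of replicate 1 lay inside the wild type range. With 661 ± 165 CPM (SD, n = 3) against 601 ± 125 CPM (SD, n = 4), the log2 fold change was −0.14 (95% interval −0.53 to 0.25; exact permutation p = 0.629). It turned to 0.06 without wild type replicate 1, the highest mouse.

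*Ctsg* (ENSMUSG00000040314, chr14:56099881-56102574, - strand) encodes cathepsin G. It stood at 1056, 876 and 932 CPM in wild type replicates 1 to 3, and at 729.9, 1008.5, 793 and 1020.5 CPM in knockout replicates 1 to 4. Both knockout replicates 1 and 3 were below the wild type range, and the other knockout mice were inside it. The means of 955 ± 92.1 CPM (SD, n = 3) and 888 ± 148 CPM (SD, n = 4) gave a log2 fold change of −0.10 (95% interval −0.41 to 0.20; exact permutation p = 0.486). It was −0.019 without wild type replicate 1 or knockout replicate 1, and −0.18 without knockout replicate 4.

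*Ctsc* (ENSMUSG00000030560, chr7:88278085-88310888, + strand) encodes cathepsin C, which trims the 3 serine proteases, and had the lowest level of the 8 genes. Its level was 75.1, 64.5 and 89.6 CPM in wild type and 93.2, 107.4, 88.0 and 68.3 CPM in knockout mice, in replicate order. In 2 of the knockout mice it was above every wild type mouse. The log2 fold change was 0.23 (76.4 ± 12.6 CPM, SD, n = 3, against 89.2 ± 16.2 CPM, SD, n = 4). Its 95% interval ran from −0.13 to 0.58 and the exact permutation p was 0.314. With 1 mouse left out the log2 fold change ran from 0.12, without wild type replicate 2 or knockout replicate 2, to 0.35, without wild type replicate 3.

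*Cst7* (ENSMUSG00000068129, chr2:150570415-150578944, + strand) encodes the cathepsin C inhibitor cystatin F. Wild type mice had 209, 178 and 172 CPM and knockout mice 177, 206, 193 and 199 CPM, in replicate order. All 4 knockout values lay inside the wild type range. The log2 fold change was 0.05 (95% interval −0.22 to 0.33), between means of 186 ± 19.8 CPM (SD, n = 3) and 193 ± 12.4 CPM (SD, n = 4), and the exact permutation p was 0.543.

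*Srgn* (ENSMUSG00000020077, chr10:62493833-62527451, - strand) encodes serglycin. Its values were 684, 536 and 647 CPM in wild type and 547, 733, 521 and 632 CPM in knockout mice, in replicate order. Knockout mice held both the highest and the lowest value. Means of 623 ± 77.0 CPM (SD, n = 3) and 608 ± 95.8 CPM (SD, n = 4) gave a log2 fold change of −0.03 (95% interval −0.34 to 0.27; exact permutation p = 0.8286).

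*Ms4a3* (ENSMUSG00000024681, chr19:11629496-11640851, - strand) varied most. It was measured at 344, 563 and 269 CPM in wild type and 238, 345, 515 and 396 CPM in knockout mice, in replicate order. Within each genotype the highest mouse was at more than double the lowest, and the means, 392 ± 153 CPM (SD, n = 3) and 374 ± 115 CPM (SD, n = 4), lay close together. The log2 fold change of −0.07 had a 95% interval from −0.79 to 0.65 and an exact permutation p of 0.8286. Without wild type replicate 2 the log2 fold change was 0.29. The mouse with the highest *Ms4a3*, wild type replicate 2, also had the highest share of *Rn45s* (20.6%), and the mouse with the lowest, knockout replicate 1, had the lowest share (4.94%). The part of that share in the result was not tested.

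**Figure D2:**
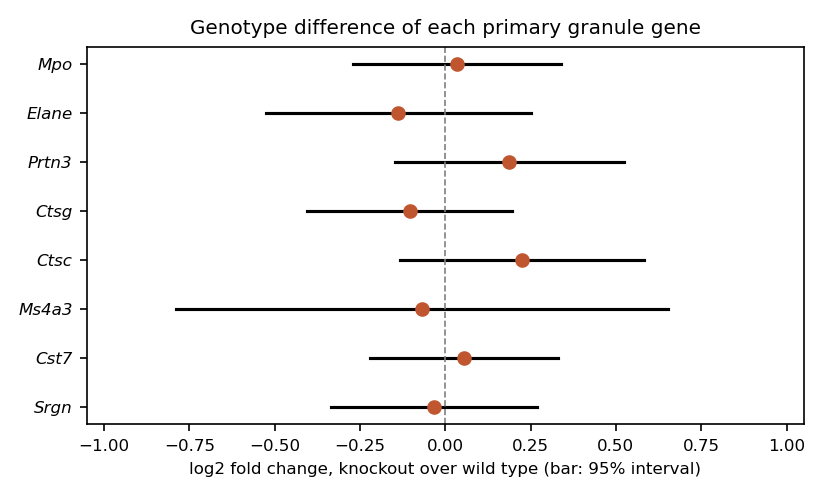
The fitted log2 fold change, knockout over wild type, of each gene is shown as a point with its 95% interval from edgeR's quasi-likelihood fit as a bar. All 8 bars cross 0, and the bar of *Ms4a3*, from −0.79 to 0.65, is the longest.

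The genotype difference of each gene was smaller than the spread between mice of one genotype. The SD within genotype of log2(CPM + 1) ran from 0.12 for *Cst7* to 0.50 for *Ms4a3*, with a median of 0.23 over the 8 genes. The median over the 1908 genes with a mean level of at least 100 CPM was 0.18. The size of the difference in mean log2(CPM + 1), divided by this SD, ran from 0.107 for *Ms4a3* to 0.845 for *Ctsc*. Counting error was smaller than this spread: the lowest count was 231 reads for *Ctsc*, a counting error of 6.58%, and its coefficient of variation was 16.5% in wild type and 18.1% in knockout mice. For *Ms4a3* the lowest count was 1015 reads, a counting error of 3.14%, beside coefficients of variation of 39.0% and 30.8%. Among the genes with a mean of at least 100 CPM, 98.2% had a smaller SD than *Ms4a3* and 19.97% had a smaller SD than *Cst7*.

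**Figure D3:**
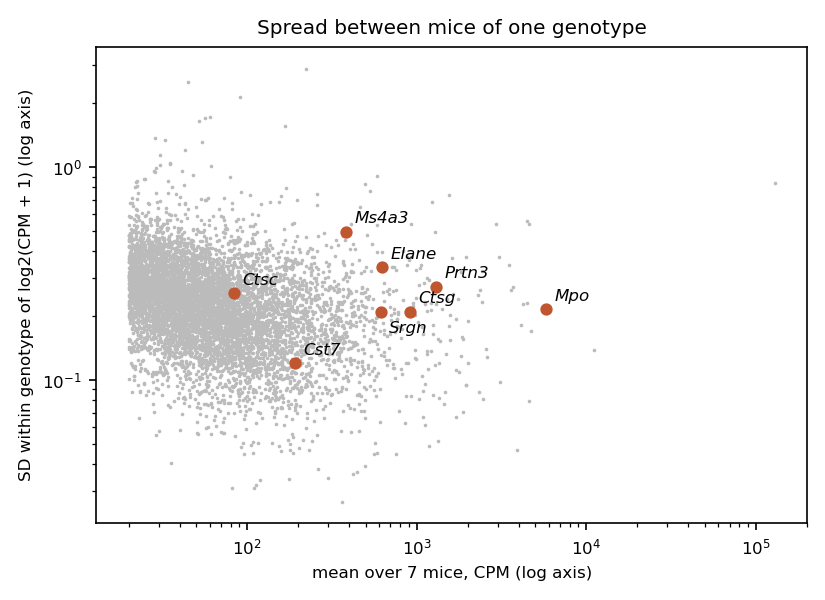
Each grey point is one of 6658 genes with a mean of at least 20 CPM, placed by its mean over the 7 mice (log axis) and by the SD of log2(CPM + 1) within genotype (log axis), and the 8 primary granule genes are orange. *Ms4a3* sits at the upper edge of genes of its level with an SD of 0.50, and *Cst7* at 0.12 lies among the less variable ones.

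Some mice lay to one side of the 7-mouse mean for most of the 8 genes, while wild type replicate 3 was above it for 4 and below it for 4. Knockout replicate 1 was the lowest of the 7 mice for *Mpo*, *Elane*, *Prtn3*, *Ctsg* and *Ms4a3*, and on average over the 8 genes it lay 0.27 below the 7-mouse mean on the log2 scale. Knockout replicate 2 was above the mean for 7 of the 8 genes, and by 0.20 on average. Wild type replicate 1 was the highest mouse for *Mpo*, *Elane*, *Ctsg* and *Cst7*. *Ctsc* did not keep to this order. Its deviation was opposite in sign to the mouse's average in wild type replicates 1 and 3 and knockout replicates 1 and 4, and in knockout replicate 1 it was 0.17 above the mean. For *Ms4a3* the sign was opposite in wild type replicates 1 and 2 and knockout replicate 2, and wild type replicate 2 was 0.62 above the mean for *Ms4a3* and below it for the other 7 genes.

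**Figure D4:**
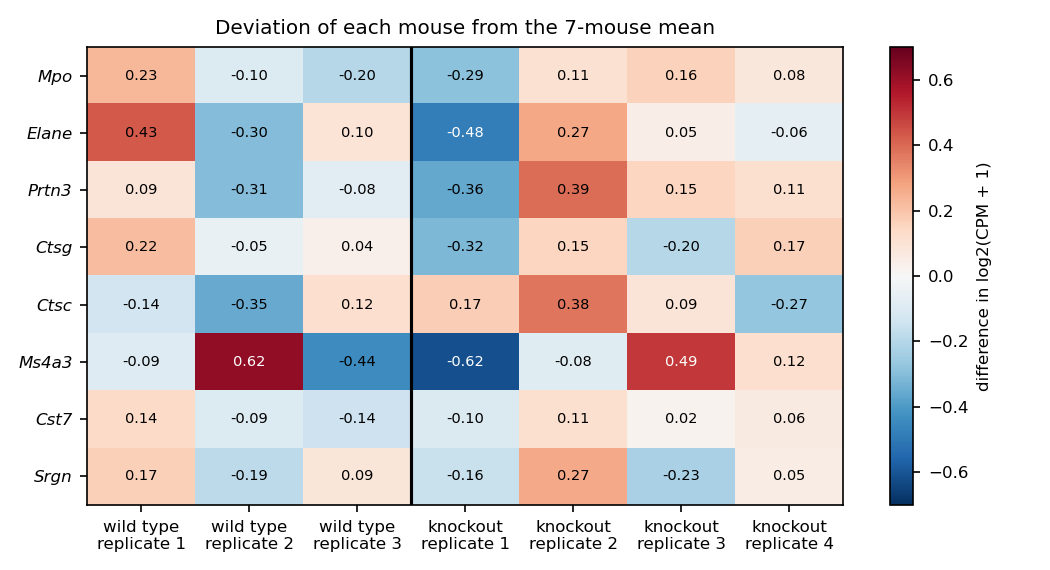
Each cell gives the difference in log2(CPM + 1) between a mouse (column) and the mean of the 7 mice for a gene (row), red above and blue below that mean, with wild type mice left of the black line. Knockout replicate 1 is blue for 7 of the 8 genes and knockout replicate 2 red for 7.

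Of the reads on genes, the 8 genes together took 0.987% ± 0.159 (SD, n = 3) in Hrp2+/+ and 0.999% ± 0.122 (SD, n = 4) in Hrp2-/- mice. The share was lowest in wild type replicate 2, at 0.841% (Wilson 95% interval 0.832 to 0.850), and highest in wild type replicate 1, at 1.155% (1.146 to 1.165). With *Rn45s* left out of the reads, the means were 1.14% ± 0.143 (SD, n = 3) and 1.13% ± 0.157 (SD, n = 4), and the lowest mouse was knockout replicate 1, at 0.908%, while wild type replicate 2 stood at 1.06%. *Mpo* alone held 58.2% ± 2.13 (SD, n = 3) of these reads in Hrp2+/+ and 58.8% ± 1.86 (SD, n = 4) in Hrp2-/- mice. In bulk RNA, fewer promyelocytes and less RNA per promyelocyte cannot be told apart. Since the kit gives 1 fragment per transcript, CPM values were set side by side between genes without division by length. In the order of mean CPM over the 7 mice, *Mpo* stood 4.47-fold above *Prtn3*, and their values did not overlap. *Prtn3*, *Ctsg* and *Elane* followed in that order within each of the 7 mice, although their ranges overlapped. *Elane* and *Srgn* did not differ beyond their spread, with *Elane* higher in 4 of the 7 mice. *Srgn* was above *Ms4a3* in 6 of the 7 mice, with overlapping ranges. *Ms4a3*, *Cst7* and *Ctsc* came last, without overlap from one to the next.

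Ratios within a library do not depend on the scaling, so the 28 ratios between pairs of the 8 genes were compared as well. For 2 of the 28 the genotypes did not overlap, where 4.02% of all pairs of the 1908 genes at 100 CPM or more had no overlap. *Elane* was 0.607, 0.480 and 0.541 of *Prtn3* in reads in wild type replicates 1 to 3 and 0.439, 0.441, 0.445 and 0.424 in knockout replicates 1 to 4. All 4 knockout mice were lower, by 0.30 on the log2 scale (exact permutation p = 0.0286, the smallest that 35 assignments of 7 mice allow, and 0.800 after Benjamini-Hochberg adjustment over the 28 ratios). *Prtn3* was between 1.18 and 1.30 times *Ctsg* in wild type and between 1.36 and 1.80 times in knockout mice (exact permutation p = 0.0857, adjusted 0.857). With 7 mice no single ratio could have passed this adjustment, since the smallest p allowed becomes 0.800. The transcripts of the 8 genes shared 0 sequences of 31 bases with each other, so reads of that length that match exactly are not split between *Elane* and *Prtn3*.

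Other genes of the primary granule and its assembly also gave no call. Of 13 further primary granule proteins 12 were tested, 8 higher and 4 lower in knockout cells, with a median log2 fold change of 0.04. Over the alternative fits this median ran from 0.02 to 0.11. The smallest unadjusted p-values were those of *Lyz2*, lysozyme (0.54, 95% interval −0.11 to 1.18), *Hexa*, a lysosomal hexosaminidase (0.20), and *Gla*, the lysosomal α-galactosidase (0.25). *Bpi* had almost no reads and was not tested. Of 10 inhibitors of granule proteases 6 were tested, 4 higher and 2 lower (median 0.05). *Serpina3g*, a serpin, was at 42.1 ± 10.7 CPM (SD, n = 3) and 23.8 ± 3.27 CPM (SD, n = 4), without overlap (log2 fold change −0.83; edgeR, adjusted p = 0.769). It was the only 1 of the 6 without overlap, beside 5.16% of all genes tested. *Serpinb1a*, the inhibitor of elastase, proteinase 3 and cathepsin G, had a log2 fold change of 0.21 and *Slpi*, another elastase inhibitor, 0.30. Of 8 transcription factors of promyelocytes 4 were higher and 4 lower (median 0.0035). *Runx1* had −0.20, *Gfi1* −0.15 and *Spi1*, which encodes PU.1, 0.17. All 4 knockout mice were above all wild type mice for *Spi1* (149 ± 4.41 CPM, SD, n = 3, against 167 ± 5.71 CPM, SD, n = 4; edgeR, adjusted p = 0.999). It was the only 1 of the 8 without overlap, beside 5.16% of all genes tested.

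Among 10 other genes of early granulocytes 8 were higher and 2 lower (median 0.09), led in p-value by *Hp*, haptoglobin (0.38; edgeR, adjusted p = 0.999), *Fcnb*, ficolin B (0.52), and *Clec5a*, a myeloid lectin receptor (0.22). With 1 mouse left out, the number higher ran from 5, without knockout replicate 2, to 9, without wild type replicate 1 or knockout replicate 1. Of 10 genes for folding and sorting of granule proteins 7 were higher and 3 lower (median 0.05), with *Pdia3* at 0.20, *Sort1* at 0.18 and *Ap3b1* at 0.16. On chromosome 10 the list of *Elane* and its neighbours had 6 of 8 genes tested, 4 higher and 2 lower (median 0.07). Without knockout replicate 3 it was 2 higher and 4 lower (median −0.04). Without wild type replicate 2 or wild type replicate 3 it was 3 higher and 4 lower. With any other mouse left out it remained 4 and 2. Besides *Prtn3* and *Elane*, *Prss57*, a further granule serine protease, had a log2 fold change of −0.09. *Cfd*, which begins 2637 bases after *Elane*, was at no more than 1.97 CPM in any mouse.

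The later granule genes, which a neutrophil precursor switches on after the primary granule genes, are given for comparison. All 16 were tested and all 16 had a positive log2 fold change, with a median of 0.68 and a range of 0.22 to 0.98, while 0 were called and 49.8% of all genes tested were higher in knockout cells. Unadjusted p-values under 0.05 were found for 2 of the 16, *Wfdc21* and *Chil3*, beside the 3.63% of all genes tested. *Wfdc21* was at 128 ± 26.4 CPM (SD, n = 3) and 214 ± 43.7 CPM (SD, n = 4), without overlap (log2 fold change 0.74; edgeR, adjusted p = 0.544), *Chil3* had 0.42, and *S100a9*, a subunit of calprotectin, 0.78. For 2 of the 16, *Wfdc21* among them, the genotypes did not overlap, beside 5.16% of all genes tested. The summed level of the list was 8642 to 11849 CPM in wild type and 9909.6 to 26351 CPM in knockout mice, with knockout replicates 1 and 3 highest. Without knockout replicate 3, the mouse that stood apart, the median of the list was 0.24, with 14 of the 16 genes higher and 2 lower. The summed level of the 8 primary granule genes was 9009.6 to 11354 CPM and 7959 to 11052 CPM, and knockout replicate 1, second highest for the later genes, was the lowest mouse for the primary ones. Whether the lists differ from each other was not tested.

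**Figure D5:**
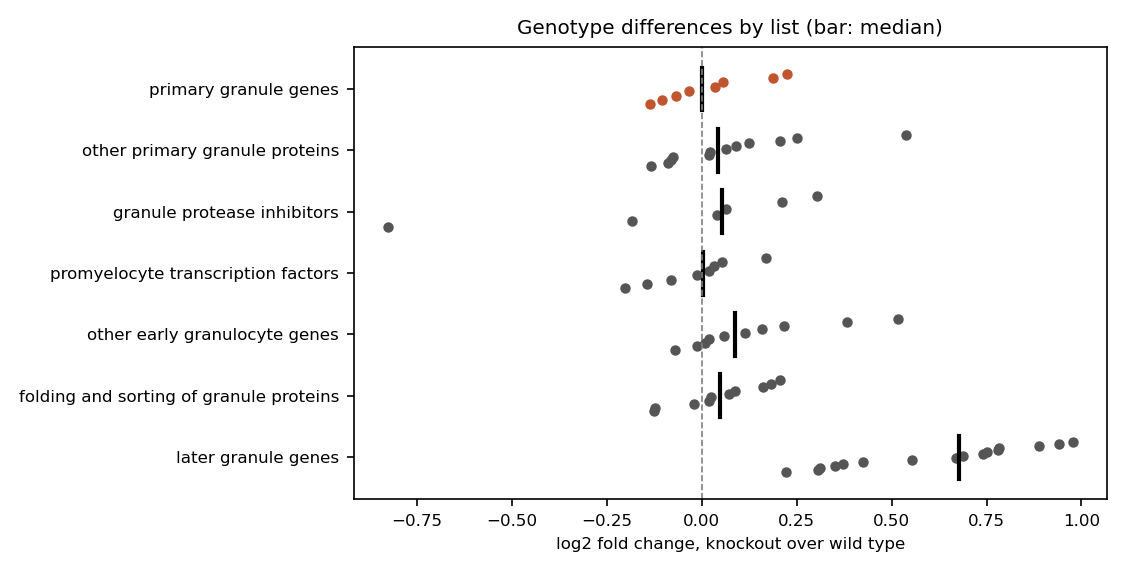
Each point is the log2 fold change, knockout over wild type, of one tested gene of a list, and black bars are list medians. The primary granule genes lie between −0.14 and 0.23 around a median near 0, and the later granule genes between 0.22 and 0.98 around a median of 0.68.

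Marker genes of other cells gave 0 calls. Genes of stem and progenitor cells were lower for 6 of 7 tested, and their sums overlapped, with 690.2 to 821 CPM in wild type and 540.4 to 755 CPM in knockout mice. Macrophage genes were lower for 7 of 7, with sums of 324 to 392 CPM and 219 to 281 CPM. Eosinophil, basophil and mast cell genes were lower for 7 of 7, from 4132 to 4536 CPM in wild type and from 2817 to 3845 CPM in knockout mice. Higher in knockout cells were 4 of 7 monocyte genes, 2 of 4 erythroid, 4 of 6 megakaryocyte, 3 of 6 B lineage, 2 of 6 T and NK and 4 of 6 dendritic genes. The megakaryocyte genes summed to 888 CPM in knockout replicate 4, against 103 to 190 CPM in the other knockout mice and 226 to 368 CPM in wild type mice, and without that mouse 0 of the 6 were higher (median log2 fold change −1.06). Without wild type replicate 2 the megakaryocyte count was 2 of 6 (median −0.13). The sums of the other lists overlapped between the genotypes except for monocyte genes, at 959 to 1076 CPM in wild type and 1116 to 1299.9 CPM in knockout mice. With 1 mouse left out, the B lineage, T and NK and dendritic counts also moved, and they carry no direction. *Ctsc*, *Cst7* and *Srgn*, which some of these cells also express, had intervals around 0, and the part of other cells in their levels was not tested. Unadjusted p-values under 0.05 were found for 5 of 7 macrophage genes and 4 of 7 eosinophil, basophil and mast cell genes, all of them lower, against 3.63% of all genes tested in either direction. The 5 genes at 100 CPM or more whose log2 level over the 7 mice was most like the mean of the 8 genes were *Txnl4a* (Pearson's r = 0.94, Spearman's rho = 0.93), *Pcyt1a* (0.93, 0.89), *Ythdc1* (0.90, 0.64), *Kdm2a* (0.89, 0.86) and *Rpl21* (0.88, 0.89). They were picked for this likeness out of 1901 genes, so no p is given. Without knockout replicates 1 and 2, the mice farthest from the median, r was between 0.61 and 0.93.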

How the data were processed

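3′ end RNA-seq libraries of lin- bone marrow cells of 7 mice were analysed, grouped by genotype from the sample titles. Per the study's methods, STAR was run by the authors against GRCm38 and reads were assigned to Ensembl genes. The deposited files hold raw counts, whole reads per gene symbol. The 5 tally rows of each file were left out. Between 27.0% and 31.6% of reads fell on no gene. The strand counted is not given in the sources used here, so reads where genes overlap cannot be told apart. *Gm11505* runs antisense to *Mpo* and *Gm26522* to *Ctsc*, and neither is among the gene symbols listed. *Plppr3*, which overlaps the 5′ end of *Prtn3*, is listed with 2036 reads over the 7 mice. No pair of libraries within a genotype was alike to within sampling noise.

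Low counts were filtered with filterByExpr, and the 11265 genes left were scaled by TMM and tested with the robust quasi-likelihood fit of edgeR 4.0.16 (R 4.3.3), with Benjamini-Hochberg adjustment. Standard errors are the size of the log2 fold change divided by the square root of F, and 95% intervals follow from them. A gene was called at an adjusted p-value under 0.25, the study's threshold. For single values a two-sided exact permutation test over the 35 possible assignments of the mice was used (scipy 1.17.1). Alternatives were DESeq2 1.42.0, limma-voom (limma 3.58.1), other scaling, other filters, the replicate number as a block and the omission of each mouse. Gene coordinates come from GENCODE M21 and promoters from RefSeq, both on GRCm38. The 8 genes and the other lists were chosen with earlier results of these data known. All 8 are named. From each other granule list and from the *Elane* neighbours the 3 genes with the smallest p-value are named, marker lists are given by counts and some sums, and 5 genes by likeness over the mice. *BC100530*, in the inhibitor list, was not matched. *Hba-a1*, *Hbb-bs*, *Hbb-bt*, *Xist*, *Ddx3y*, *Tspoap1*, *Cd34*, *Kit*, *Bpi*, *Cfd* and *Cebpe* were named after their values were seen. The ratios, the motifs and the list counts with single mice left out were also chosen after the data had been seen.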

Additional observations from a re-analysis of the deposited data

Results flagged for a closer look

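Of 38 values checked for 1 knockout mouse lying away from the rest, 3 stood out, where chance gives about 1 in 20. All 3 were low values of knockout replicate 1, and none was a primary granule gene. *Clec5a* stood at 12.4 CPM there and at 24.04 to 25.9 CPM in the other knockout mice. *Pcyt1a* stood at 93.2 CPM against 118 to 120.4 CPM, and *Ythdc1* at 115.5 CPM against 160.4 to 166 CPM. *Pcyt1a* and *Ythdc1* had been picked for their likeness to the primary granule genes, which were themselves low in this mouse.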

How the results depend on the processing

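The number of primary granule genes called was 0 under each of 16 other fits. The share of all genes called is given for the main fit only. *Hdgfl2* was called in each of the 15 that tested it, with a log2 fold change of −5.62 to −4.86; a minimum of 10 counts in every mouse removed it. The median log2 fold change of the 8 genes ran from −0.03 to 0.11 over the 16 fits and the number of genes higher in knockout cells from 3 to 6. With 1 mouse left out, the number of genes without overlap ran from 0 to 1, the 1 being *Prtn3* without knockout replicate 1. That case follows from the place of this mouse below all the others, and no share over all genes is given for it. The log2 fold change changed sign with 1 mouse left out for *Mpo* (−0.052 to 0.18), *Elane* (−0.30 to 0.065), *Ms4a3* (−0.28 to 0.29) and *Srgn* (−0.14 to 0.047). Without knockout replicate 3 alone, *Mpo* had −0.01 and *Srgn* 0.03. For the other 4 genes the direction was the same in all 16 fits. *Prtn3* ran from 0.076 to 0.32 and *Ctsc* from 0.12 to 0.35. *Ctsg*, from −0.19 to −0.019, and *Cst7*, from 0.00035 to 0.15, came close to 0. *Elane* relative to *Prtn3* differed by −0.39 to −0.22 with 1 mouse left out. The median of the later granule genes ran from 0.24, without knockout replicate 3, to 0.81.

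The replicate number was also used as a block: 0 of the 8 genes were called and their median log2 fold change was −0.02. Same-numbered mice are different animals, and no source used here pairs them. The correlations of their deviations from the genotype mean were −0.02, −0.21 and −0.16. So few values from so few mice cannot exclude a shared batch. With 3 and 4 mice the intervals are wide: for *Ms4a3* a fall to 0.579 or a rise to 1.57 times the wild type level lies within the 95% interval.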

Other observations

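Over the 7 mice the log2 level of *Ms4a3* had a Pearson's r of −0.02 with the mean of the other primary granule genes, and of 0.50 with *Mpo* alone. Without wild type replicate 2 and knockout replicate 3, the mice farthest from the median of *Ms4a3*, r with *Mpo* was 0.88. *Mpo* was the only primary granule gene set against it in this way. On the mice that remained, r with the mean of the other primary granule genes was not computed. The genes at 100 CPM or more whose log2 level was most like it over the 7 mice were *Hdlbp* (Pearson's r = 0.98, Spearman's rho = 0.96), *Nme1* (0.98, 1.00), *Fau* (0.98, 0.93), *Atpif1* (0.97, 0.93) and *Frrs1* (0.96, 0.93). *Fau* encodes a ubiquitin-like protein fused to a ribosomal protein, and *Nme1* a nucleoside diphosphate kinase. *Cebpe*, a factor that granulocyte precursors need to make secondary granules, stood at 36.5, 62.8 and 25.4 CPM in wild type replicates 1 to 3 and at 20.7, 21.1, 74.4 and 55.9 CPM in knockout replicates 1 to 4. As for *Ms4a3*, wild type replicate 2 and knockout replicate 3 were the highest mice for *Cebpe* and knockout replicate 1 the lowest (r = 0.89, rho = 0.86, and 0.74 for r without those 2 highest mice). Genes picked for a likeness carry no test, and the share of *Rn45s* reads was also highest in wild type replicate 2 and lowest in knockout replicate 1.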
